A study of Mus musculus with 27 samples.

Results

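The genes described here are 34 genes of sterol and fatty acid synthesis that sterol regulatory element binding proteins (SREBPs) are known to drive, together with the genes that control those factors. They were chosen by name, and each of the 34 names matched 1 gene of the 54532 in the table of read counts. By role they comprise 19 enzymes of sterol synthesis and its isoprenoid branch, 5 genes of SREBP control (Srebf1, Srebf2, Scap, Insig1 and Insig2), 2 genes of sterol transport (Stard4 and Tmem97) and 8 enzymes of fatty acid synthesis. All 34 had enough reads to be tested in both experiments, beside 16073 tested genes in all in experiment 1 and 15604 in experiment 2.

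RNA was sequenced from mixed glia, which are primary cultures grown from the cortex of C57BL/6 pups aged 3 to 6 days and kept for 14 days in vitro. The 27 libraries formed 9 groups of 3. Experiment 1 had 15 libraries of glia given lipopolysaccharide (LPS, 100 ng/mL) and interferon gamma (IFN-gamma, 20 ng/mL) with bryostatin (50 nM), LPS and IFN-gamma, LPS with bryostatin, LPS, or no treatment. Experiment 2 had 12 libraries of glia given interleukin 4 (IL-4, 20 ng/mL) with bryostatin, IL-4, bryostatin, or no treatment. Agents were given for 24 h. LPS is a bacterial cell wall product that sets off inflammation, IFN-gamma and IL-4 are cytokines, and bryostatin is a natural macrolide that binds protein kinase C. The labels do not say whether the replicates of a group came from separate cultures or animals, and p-values therefore rest on a spread that may be only technical.

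SREBPs are made as membrane proteins of the endoplasmic reticulum. The escort protein encoded by Scap carries them to the Golgi, where proteases release the active factor, and the Insig proteins hold the complex back when sterols are plentiful. The factor encoded by Srebf2 acts mainly on genes of sterol synthesis and that encoded by Srebf1 mainly on genes of fatty acid synthesis. In the brain, cholesterol is made locally because lipoproteins of the blood do not cross into it, and astrocytes are a main source that supplies other cells. 25-hydroxycholesterol, made by the product of Ch25h in activated immune cells, blocks the release of SREBPs.

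Promoter windows are shown for the genes on which the comparisons turn. The windows run over 300 bases, from 250 before to 50 after a transcript start, and were taken from RefSeq on GRCm38.p6. They were found for 27 of the 34 genes, as 35 windows, and not for Fads1, Fdft1, Fdps, Scd1, Scd2, Sqle and Stard4. Capitals mark matches on either strand to 3 motifs, which are the sterol regulatory element TCACNCCAC (N is any base), the E-box CACGTG, which SREBPs can also bind, and the CCAAT box, the site of the SREBP partner factor NF-Y, whose reverse complement is ATTGG. Hmgcs1 is shown as the only one of the 27 genes with the sterol regulatory element, Insig1 for its E-box, Mvd, Lss and Cyp51 as sterol enzymes with large differences between groups, and Fads2 as a fatty acid desaturase with none of the 3 motifs.
Hmgcs1, chr13:119690101-119690400, plus strand: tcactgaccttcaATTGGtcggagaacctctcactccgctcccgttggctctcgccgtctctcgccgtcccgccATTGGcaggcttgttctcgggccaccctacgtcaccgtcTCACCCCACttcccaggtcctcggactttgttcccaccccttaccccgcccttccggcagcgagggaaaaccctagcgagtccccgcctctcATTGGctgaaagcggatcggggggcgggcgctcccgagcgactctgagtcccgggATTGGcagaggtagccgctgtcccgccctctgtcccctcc
Insig1, chr5:28071162-28071461, plus strand: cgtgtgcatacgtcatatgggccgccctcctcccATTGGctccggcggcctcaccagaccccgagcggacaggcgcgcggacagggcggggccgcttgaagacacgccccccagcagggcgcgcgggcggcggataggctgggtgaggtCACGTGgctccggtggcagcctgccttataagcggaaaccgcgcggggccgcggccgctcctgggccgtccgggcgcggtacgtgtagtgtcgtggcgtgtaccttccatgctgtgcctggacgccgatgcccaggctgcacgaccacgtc
Mvd, chr8:122443373-122443672, minus strand: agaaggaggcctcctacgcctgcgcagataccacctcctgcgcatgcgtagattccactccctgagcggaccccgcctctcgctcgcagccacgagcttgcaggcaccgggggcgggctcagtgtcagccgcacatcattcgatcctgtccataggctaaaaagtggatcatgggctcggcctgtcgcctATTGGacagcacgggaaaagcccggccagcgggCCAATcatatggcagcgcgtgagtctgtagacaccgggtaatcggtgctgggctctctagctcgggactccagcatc
Lss, chr10:76531355-76531654, plus strand: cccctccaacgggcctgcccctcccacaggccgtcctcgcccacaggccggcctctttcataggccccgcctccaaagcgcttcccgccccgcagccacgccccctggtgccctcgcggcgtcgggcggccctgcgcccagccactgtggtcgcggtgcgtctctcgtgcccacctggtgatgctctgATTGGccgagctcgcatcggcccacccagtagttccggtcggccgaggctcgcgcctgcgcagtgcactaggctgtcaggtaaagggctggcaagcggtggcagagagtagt
Cyp51, chr5:4104648-4104947, minus strand: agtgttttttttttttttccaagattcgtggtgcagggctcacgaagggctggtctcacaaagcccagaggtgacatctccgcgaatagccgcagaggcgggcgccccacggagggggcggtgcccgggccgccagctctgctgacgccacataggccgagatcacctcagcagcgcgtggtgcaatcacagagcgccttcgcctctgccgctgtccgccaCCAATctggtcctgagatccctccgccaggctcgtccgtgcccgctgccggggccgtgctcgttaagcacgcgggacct
Fads2, chr19:10101454-10101753, minus strand: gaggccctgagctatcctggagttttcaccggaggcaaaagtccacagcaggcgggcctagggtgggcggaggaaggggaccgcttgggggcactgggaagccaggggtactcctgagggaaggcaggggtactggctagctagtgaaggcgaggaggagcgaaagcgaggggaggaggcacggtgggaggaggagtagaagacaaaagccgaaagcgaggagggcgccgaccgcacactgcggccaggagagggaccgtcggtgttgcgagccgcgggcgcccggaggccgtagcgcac

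The CCAAT box was present in a window of 22 of the 27 genes (81.5%), against 41.1% of the 27025 genes with a window. It was present in 15 of 16 sterol enzymes, 4 of 5 genes of SREBP control and 2 of 5 fatty acid enzymes. The E-box was present in 5 of the 27 genes (18.5%, Dhcr7, Hsd17b7, Insig1, Sc5d and Scap), against 8.09% of all genes with a window. The sterol regulatory element was present in 1 of the 27 genes (3.7%), against 1.44% of all. Over single windows, 37.4% of 32851 held the CCAAT box, 7.15% the E-box and 1.24% the sterol regulatory element. A match is only a match of letters, and motifs that vary from these letters were not searched.

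Total counts per library ran between 17230058 and 28687281. Astrocyte markers summed to between 5068 and 18710 CPM (counts per 1e6 reads, with TMM scaling within each experiment) and microglia markers to between 423.9 and 2341 CPM, and none of the 12 markers of either list was at 0 in all libraries of a group. Mog, Mobp or Cldn5, markers of myelinating and endothelial cells, were at 0 in all libraries of some groups. In bulk RNA of a mixed culture, fewer cells of a type and less RNA per cell cannot be told apart.

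An untreated library of each experiment stood apart from its group. Across 16647 genes on the log2 CPM scale, Pearson's r of replicate 1 of experiment 1 was 0.9908 and 0.9905 with replicates 2 and 3 of experiment 2, against 0.9638 and 0.9649 with its own mates. For replicate 1 of experiment 2, r was 0.9814 and 0.9746 with replicates 2 and 3 of experiment 1, against 0.9582 and 0.9512 with its own mates. Of the 34 genes, 6 differed over 1.5-fold between replicate 1 and the mean of replicates 2 and 3 in experiment 1 and 12 did in experiment 2, while between replicates 2 and 3 the numbers were 0 and 1. Insig1 showed the split most plainly, with 152, 52.3 and 57.2 CPM in the untreated libraries of experiment 1, and 59.2, 161 and 166 CPM in those of experiment 2, in the order of replicates 1, 2 and 3. Labels were kept as given, and counts are also given without both of these libraries. The median coefficient of variation of the 34 genes was 12.4% and 16.4% in the untreated groups of experiments 1 and 2, against 3.9% to 11.6% in the treated groups.

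Per kilobase of gene length, untreated glia expressed the fatty acid desaturases most. Scd2, which desaturates stearate, was first in both experiments, at 397 CPM per kilobase in experiment 1 and 378 in experiment 2, followed by Fads2, Fads1 and Scd1 in that order. Hmgcs1, the synthase that makes HMG-CoA, came after these at 65.1 and 71.0 CPM per kilobase. Lss, lanosterol synthase, was next to last at 3.09 and 3.09. The rank depends on the deposited gene lengths, which are 10787 bases for Lss and 1859 for Mvd. Not scaled by length, Lss had 36.1, 32.2 and 31.7 CPM in untreated glia of experiment 1. Mvd, ranked above it, had 21.3, 19.1 and 18.0 CPM there. Fdps, farnesyl diphosphate synthase, was last at 0.169 and 0.253 CPM per kilobase. Fdps had 972 reads in all 27 libraries together, so its values are uncertain. Reads that also fit pseudogene copies may be missing from its count, which was not tested, and its rank may not reflect its expression. Reads of Scd1 and Scd2 may also fit their near copies Scd3 and Scd4, which had 59 and 626 reads in all libraries, against 188888 and 906012 for Scd1 and Scd2. Because the libraries do not mark strand, reads of a gene and of an antisense partner cannot be told apart.

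With LPS, set against no treatment, 13 of 19 sterol enzymes rose, none of them fell, and 4 of 8 fatty acid enzymes, the desaturases Scd1, Scd2, Fads1 and Fads2, fell. In edgeR's quasi-likelihood test, 17 of the 34 genes were higher and 4 were lower in LPS-treated glia than in untreated glia, and 19.5% and 18.8% of all tested genes were called higher and lower (38.4% in either direction). As a median, the log2 fold change of the 34 genes was 0.22, and that of all tested genes was -0.01. The 13 sterol enzymes that rose were Acat2, Hmgcs1, Mvk and Mvd of the mevalonate steps, Fdps, Fdft1 (squalene synthase) and Sqle, and Lss, Cyp51, Msmo1, Nsdhl, Ebp and Dhcr7, which form and trim the sterol rings. Pmvk, Idi1, Ggps1, Tm7sf2, Hsd17b7 and Sc5d were not called. The others higher were Srebf1, Insig2, Tmem97 and Acly, and those lower were all fatty acid enzymes. Without both doubted libraries 20 were higher and 4 lower, beside 21.7% and 21.1% of all genes (42.8% together).

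Hmgcs1 (chr13:119690379-119708260, mm10) had 363, 361 and 354 CPM in LPS-treated glia, against 333, 280.0 and 284 CPM in untreated glia. Every LPS library was above every untreated one, and the log2 fold change was 0.27 ± 0.08 (adjusted p = 0.0136). Sqle, squalene epoxidase, which makes the first oxygenated sterol precursor, had 176, 183 and 176 CPM in LPS-treated glia, against 173, 146 and 139 CPM in untreated glia. The log2 fold change of Sqle was 0.22 ± 0.08 (adjusted p = 0.0335), a call that was lost when any LPS library, or untreated replicate 2 or 3, was left out.

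The largest rise was that of Fdps, with 1.98, 1.85 and 2.18 CPM in LPS-treated glia, against 0.965, 0.592 and 0.572 CPM in untreated glia, and a log2 fold change of 1.50 ± 0.23 (adjusted p = 7.47e-05). Tmem97, the sigma-2 receptor, a sterol-binding membrane protein, had 24.9, 27.3 and 25.9 CPM with LPS, against 13.5, 17.9 and 14.3 CPM without. Its log2 fold change was 0.77 ± 0.15 (adjusted p = 0.000525), and the groups did not overlap. Cyp51 (chr5:4081145-4104746), which removes the 14-alpha methyl group of lanosterol, had 189.6, 189 and 185 CPM with LPS, against 133, 106 and 110.1 CPM in untreated glia, with a log2 fold change of 0.69 ± 0.08 (adjusted p = 4.35e-06). Over the 34 genes, 17 had every LPS library above every untreated library and 5 had every one below, where 26.5% and 24.4% of all tested genes did.

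Among the genes of SREBP control, Srebf1 had 169, 147 and 157 CPM in LPS-treated glia, against 127, 125 and 116 CPM in untreated glia, and rose by 0.36 ± 0.08 (adjusted p = 0.0013) on the log2 scale. Srebf2 had 284, 273 and 288 CPM, against 267, 255 and 243 CPM in untreated glia, a log2 difference of 0.14 ± 0.07 (adjusted p = 0.126) that was not called. Insig2 rose by 0.29 ± 0.08 (adjusted p = 0.00618), with 50.1, 54.8 and 52.9 CPM in LPS-treated glia and 43.8, 41.6 and 43.8 CPM in untreated glia. Insig1, at 80.4, 84.9 and 84.2 CPM with LPS, lay between the untreated libraries given above, and its log2 fold change of -0.07 ± 0.29 (adjusted p = 0.88) turned to 0.61 (adjusted p = 5.47e-06) without the library labelled replicate 1.

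Of the 8 fatty acid enzymes 4 fell, 1 rose and 3 did not pass the test. Scd1 had 257, 237 and 232 CPM in LPS-treated glia, against 525, 329 and 345 CPM in untreated glia, and fell with a log2 fold change of -0.73 ± 0.13 (adjusted p = 0.000416). Scd2 had 1736, 1671 and 1666 CPM with LPS, against 1975, 2220.1 and 2293 CPM without, with a log2 fold change of -0.36 ± 0.08 (adjusted p = 0.00217). Fads1 and Fads2, the delta-5 and delta-6 desaturases of polyunsaturated fatty acids, had log2 fold changes of -0.20 ± 0.06 (adjusted p = 0.014) and -0.38 ± 0.07 (adjusted p = 0.000497). Fasn, fatty acid synthase, had 171, 165 and 178 CPM with LPS, against 302, 189 and 201 CPM in untreated glia, and its log2 difference of -0.43 ± 0.18 (adjusted p = 0.0755) was not called in edgeR, while DESeq2 gave an adjusted p of 0.0402. On the log2 scale the doubted untreated replicate 1 lay above the mean of replicates 2 and 3 by 0.63 for Fasn and 0.64 for Scd1. The falls of Fasn and Scd1 measured against all 3 untreated libraries are larger for that reason. For Scd2 and Fads2 the same log2 difference was -0.19 and -0.17, which makes their falls smaller, and for Fads1 it was 0.02. Without the doubted library the lowest log2 fold change of the 8 enzymes was -0.48, with 4 called lower and 1 higher. Acly, ATP citrate lyase, which supplies cytosolic acetyl-CoA to both pathways, was the only fatty acid enzyme that rose, with a log2 fold change of 0.26 ± 0.09 (adjusted p = 0.0333). Its call was lost without LPS replicate 1 or 3, or without untreated replicate 2 or 3.

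Genes of related pathways were called in both directions with LPS. Ch25h had 121, 127 and 124 CPM in LPS-treated glia, against 14.4, 9.28 and 6.58 CPM in untreated glia, a log2 fold change of 3.63 ± 0.19 (adjusted p = 4.17e-10). Cyp7b1, which hydroxylates oxysterols, rose by 2.40 ± 0.12 (adjusted p = 1.56e-10), and Cyp27a1, the sterol 27-hydroxylase, fell to 0.398 ± 0.0617 CPM with LPS, against 1.75 ± 0.581 CPM in untreated glia (SD, n = 3 each), a log2 fold change of -2.11 ± 0.45 (adjusted p = 0.00144). In the list of oxysterol synthesis and targets of LXR, the receptor of oxysterols, 5 of 13 genes rose and 5 fell. Abca1, the cholesterol exporter, and Apoe, the lipoprotein of glia, had log2 differences of -0.25 ± 0.21 (adjusted p = 0.379) and -0.12 ± 0.21 (adjusted p = 0.687). Without the doubted library Apoe was called lower, at -0.39 (adjusted p = 0.0167). In sterol uptake and storage, 4 of 14 rose and 5 fell, among them Npc2, which moves cholesterol out of lysosomes, at 1.36 ± 0.10, and the lysosomal lipase Lipa at -1.01 ± 0.11. Of 12 genes of fatty acid oxidation 0 rose and 7 fell, led by the dehydrogenase Acadm at -1.12 ± 0.08. In other fatty acid and glycerolipid synthesis 7 of 16 rose and 6 fell, with the elongase Elovl7 at 1.17 ± 0.10 and the carbohydrate response factor Mlxipl at -4.01 ± 0.44. Of SREBP proteases and partners, 4 of 11 rose and 0 fell, and of the other isoprenoid branches 2 of 10 rose and 1 fell.

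Cell type markers moved in the same comparison. Astrocyte markers summed to between 9664 and 10230 CPM in LPS-treated glia, against 12850 to 15810 CPM in untreated glia, with 2 of 12 higher and 7 lower. Microglia markers summed to between 806.6 and 871.9 CPM, against 1428 to 1705 CPM, with 4 of 12 higher and 8 lower. Fibroblast and mural cell markers summed to between 3588 and 4337 CPM with LPS, against 1167 to 2483 CPM in untreated glia, with 4 of 6 higher and 1 lower. Endothelial markers summed to between 41.27 and 43.22 CPM, against 28.08 to 40.02 CPM, with 2 of 5 tested higher and 1 lower. The part of any of these in the result was not tested.

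With LPS and IFN-gamma nearly all sterol enzymes rose, with Fdps, Mvd and Lss the furthest. Of the 34 genes, 25 were higher and 3 were lower in glia given LPS and IFN-gamma than in untreated glia, beside 29.5% and 28.6% of all tested genes (58.1% in either direction). The median of the log2 fold changes of the 34 was 0.86, and that of all tested genes was -0.01. The genes called higher were 18 of 19 sterol enzymes, all but Ggps1 (which makes geranylgeranyl diphosphate, off the sterol route), 4 of 5 genes of SREBP control (all but Scap), both transport genes and Acly. Scd1, Scd2 and Fads2 were lower. Without the doubted libraries 24 were higher and 2 lower, beside 31% and 29.9% of all genes (60.9% together), and the calls of Tm7sf2 and Scd1 were lost.

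Fdps had 5.10, 5.18 and 5.03 CPM in glia given LPS and IFN-gamma, against 0.965, 0.592 and 0.572 CPM in untreated glia, and a log2 fold change of 2.84 ± 0.22 (adjusted p = 1.61e-08). Mvd (chr8:122433601-122443422), the last enzyme of the mevalonate steps, had 106, 89.8 and 97.6 CPM, against 21.3, 19.1 and 18.0 CPM in untreated glia, and a log2 fold change of 2.33 ± 0.10 (adjusted p = 1.23e-11). Lss (chr10:76531588-76557138), which closes the sterol rings, had 98.0, 103 and 110.1 CPM, against 36.1, 32.2 and 31.7 CPM in untreated glia, and a log2 fold change of 1.64 ± 0.08 (adjusted p = 3.19e-11). For these 3 genes every treated library was far above every untreated one. Hmgcs1 had 533, 577 and 573 CPM with LPS and IFN-gamma and rose by 0.91 ± 0.08 (adjusted p = 6.43e-08) against untreated glia, and Sqle, at 273, 251 and 257 CPM, rose by 0.77 ± 0.08 (adjusted p = 4.06e-07).

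Insig1 had 189.5, 186 and 199 CPM in glia given LPS and IFN-gamma, all above the untreated libraries given above, and rose by 1.13 ± 0.29 (adjusted p = 0.00429). Without the doubted libraries its log2 fold change was 1.81 (adjusted p = 8.76e-13). Insig2 rose by 0.44 ± 0.08, Srebf2 by 0.36 ± 0.07 and Srebf1 by 0.26 ± 0.08. Scd1 had 289, 334 and 311 CPM, against 525, 329 and 345 CPM in untreated glia, with a log2 fold change of -0.36 ± 0.13 (adjusted p = 0.0291), and Scd2, at 1731, 1939 and 1935 CPM, had a log2 fold change of -0.21 ± 0.08 (adjusted p = 0.0329). Fasn, at 199, 227 and 195 CPM, overlapped untreated glia, with a log2 difference of -0.15 ± 0.18 (adjusted p = 0.485). Every library of glia given LPS and IFN-gamma was above every untreated library for 25 of the 34 genes and below for 2, where 30.3% and 28% of all tested genes were.

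Against LPS alone, the addition of IFN-gamma raised nearly the whole sterol route. In glia given LPS and IFN-gamma, 24 of the 34 genes were higher and 0 were lower than in glia given LPS, beside 19.2% and 16.8% of all tested genes (36% in either direction). At an unadjusted p under 0.05 the test passed 25 genes of the 34 in either direction, beside 7199 of all 16073 tested, and DESeq2 called 24 of the 34 and 6021 of all. The median log2 fold change of the 34 genes was 0.55, against -0.01 for all tested genes. The genes called were 18 of 19 sterol enzymes, again all but Ggps1, with Insig1, Srebf2, Stard4, Acly, Scd1 and Fads1. This comparison does not use the untreated libraries for its means, and 25 genes were higher and 0 lower without the doubted ones, beside 21.9% and 20.9% of all genes (42.8% together).

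Mvd had 106, 89.8 and 97.6 CPM in glia given LPS and IFN-gamma, against 31.5, 30.6 and 29.6 CPM in glia given LPS, a log2 fold change of 1.68 ± 0.10 (adjusted p = 2.85e-09). Lss had 98.0, 103 and 110.1 CPM, against 42.0, 39.7 and 39.1 CPM with LPS, and a log2 fold change of 1.36 ± 0.08 (adjusted p = 1.66e-09). Fdps, at 5.10, 5.18 and 5.03 CPM, against 1.98, 1.85 and 2.18 CPM with LPS, had a log2 fold change of 1.35 ± 0.20 (adjusted p = 5.89e-05). Insig1 had 189.5, 186 and 199 CPM, against 80.4, 84.9 and 84.2 CPM with LPS. The groups were far apart, and the log2 fold change was 1.20 ± 0.29 (adjusted p = 0.00555). The untreated libraries share the fit and so its SE, and without the doubted ones the log2 fold change was 1.20 (adjusted p = 1.14e-10).

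Hmgcs1 had 533, 577 and 573 CPM with LPS and IFN-gamma, against 363, 361 and 354 CPM with LPS, and rose by 0.64 ± 0.08 (adjusted p = 9.58e-06). Sqle had 273, 251 and 257 CPM, against 176, 183 and 176 CPM with LPS, and rose by 0.55 ± 0.08 (adjusted p = 4.5e-05). The later sterol enzymes Cyp51 (0.91 ± 0.08), Dhcr7 (0.90 ± 0.07, 7-dehydrocholesterol reductase) and Hsd17b7 (1.06 ± 0.21, which reduces the 3-keto group during removal of the methyls at carbon 4) rose as well, as did Acat2 (0.87 ± 0.08), which joins the first acetyl-CoA units. The smallest called rises on the log2 scale were those of Srebf2 at 0.21 ± 0.07 (adjusted p = 0.0264), with 335, 317 and 328 CPM against 284, 273 and 288 CPM with LPS, and of Fads1 at 0.26 ± 0.06. Calls of Mvk, Tm7sf2, Srebf2 and Scd1 were each lost in 5 of 6 fits that left out 1 library.

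The 10 genes not called with the addition of IFN-gamma held 5 of the 8 fatty acid enzymes, which were Acaca (acetyl-CoA carboxylase, 0.32 ± 0.13), Elovl6 (an elongase of palmitate, 0.06 ± 0.13), Fasn, Scd2 and Fads2 (-0.01 ± 0.07). Srebf1 had 157, 139.9 and 144 CPM in glia given LPS and IFN-gamma, against 169, 147 and 157 CPM in glia given LPS, a log2 difference of -0.10 ± 0.08 (adjusted p = 0.322). Fasn had 199, 227 and 195 CPM, against 171, 165 and 178 CPM with LPS, with every value above, and a log2 difference of 0.28 ± 0.18 (adjusted p = 0.259). Scd1 rose by 0.36 ± 0.13 (adjusted p = 0.0438), with 289, 334 and 311 CPM, against 257, 237 and 232 CPM with LPS, while Scd2 had a log2 difference of 0.14 ± 0.08 (adjusted p = 0.179). Insig2 had 59.6, 56.0 and 59.7 CPM, against 50.1, 54.8 and 52.9 CPM with LPS, and a log2 difference of 0.15 ± 0.08 (adjusted p = 0.136). Libraries of glia given LPS and IFN-gamma were all above those of glia given LPS for 27 of the 34 genes and all below for 0, where 26.1% and 26.2% of all tested genes were.

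**Figure D1:**
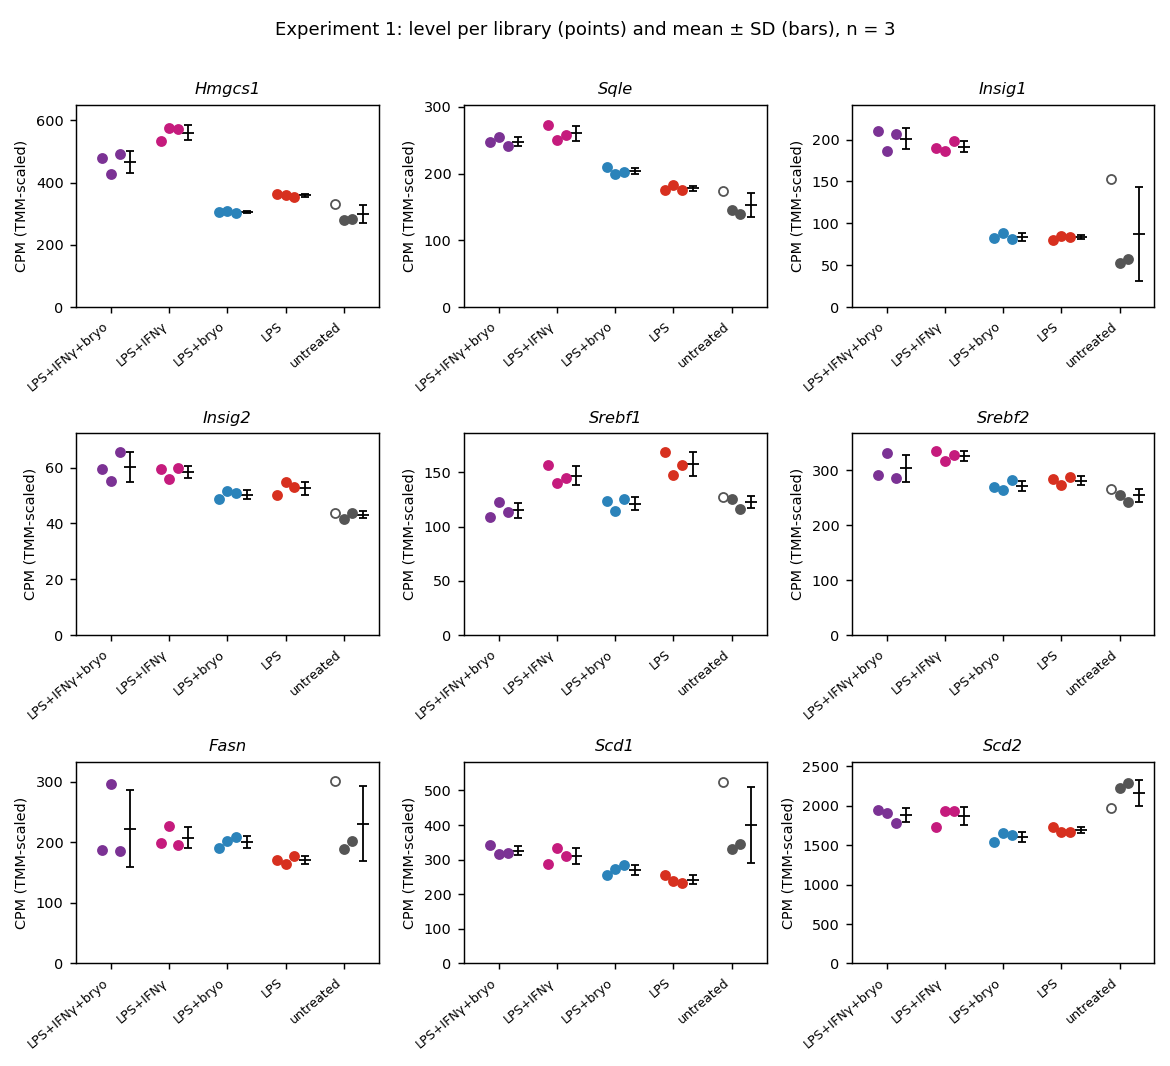
Level per library (points, CPM scaled with TMM factors) and mean ± SD (bars, n = 3) of 9 genes in the 5 groups of experiment 1, with the library labelled untreated replicate 1 as an open point. The 3 libraries given LPS and IFN-gamma lie above the 3 given LPS for Hmgcs1, Sqle and Insig1, while the LPS libraries lie below the untreated ones for Scd1 and Scd2.

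Ch25h was lower with the addition of IFN-gamma, at 44.5, 54.5 and 48.0 CPM in glia given LPS and IFN-gamma, against 121, 127 and 124 CPM in glia given LPS, a log2 fold change of -1.34 ± 0.17 (adjusted p = 1.51e-05). Against untreated glia it was higher by 2.29 ± 0.18 (adjusted p = 4.37e-08). Cyp7b1 rose by 0.81 ± 0.11 against LPS and by 3.22 ± 0.12 against untreated glia. Abca1 and Apoe had log2 differences of 0.35 ± 0.21 (adjusted p = 0.213) and 0.02 ± 0.21 (adjusted p = 0.952) against LPS, and of 0.10 ± 0.21 (adjusted p = 0.692) and -0.10 ± 0.21 (adjusted p = 0.7) against untreated glia. Apoe was called lower than in untreated glia without the doubted library, at -0.37 (adjusted p = 0.0161). Of 13 genes of oxysterol synthesis and LXR targets, 3 rose and 3 fell against LPS and 4 rose and 4 fell against untreated glia.

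In other fatty acid and glycerolipid synthesis, 11 of 16 genes rose and 1 fell against LPS. Gpam, which starts glycerolipid synthesis, fell with a log2 fold change of -2.54 ± 0.30 (adjusted p = 1.58e-05), at 27.6 ± 4.21 CPM in glia given LPS and IFN-gamma and 160.2 ± 10.8 CPM in glia given LPS (SD, n = 3 each), while Mlxipl rose by 1.76 ± 0.49 and Elovl7 by 1.18 ± 0.10. Against untreated glia 10 rose and 4 fell, with Elovl7 at 2.36 ± 0.10, Mlxipl at -2.25 ± 0.38 and Gpam at -2.10 ± 0.29. In sterol uptake and storage, 5 of 14 rose and 1 fell against LPS, with the lipoprotein receptor Vldlr at 1.30 ± 0.21 and the cholesteryl ester hydrolase Nceh1 at 1.23 ± 0.08. Against untreated glia 6 rose and 3 fell, with Npc2 at 2.06 ± 0.10. Of 11 SREBP proteases and partners 4 rose and 2 fell against LPS, led by Nfyb, a subunit of NF-Y, at 0.83 ± 0.07, and 5 rose and 2 fell against untreated glia. Of 12 genes of fatty acid oxidation 3 rose and 2 fell against LPS, and 2 rose and 5 fell against untreated glia. Of 10 genes of other isoprenoid branches 2 rose and 1 fell against LPS, and 5 rose and 2 fell against untreated glia.

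Marker sums in glia given LPS and IFN-gamma were 7000 to 7560 CPM for astrocytes, against 9664 to 10230 CPM in glia given LPS, and 538.8 to 598.7 CPM for microglia, against 806.6 to 871.9 CPM. Of 12 astrocyte markers 0 were higher and 7 lower than with LPS, and of 12 microglia markers 0 and 9, and their part in the rise of the sterol genes was not tested. Precursors of oligodendrocytes had marker sums of 212.7 to 226.5 CPM, against 510.1 to 541.3 CPM with LPS. Neuron markers had sums of 268.4 to 311.5 CPM, against 145.8 to 156.8 CPM with LPS, with 2 of 5 tested higher and 0 lower. Fibroblast and mural cell markers had sums of 2328 to 3918 CPM, against 3588 to 4337 CPM with LPS, with 0 of 6 higher and 3 lower. The part of these lists was not tested either.

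**Figure D2:**
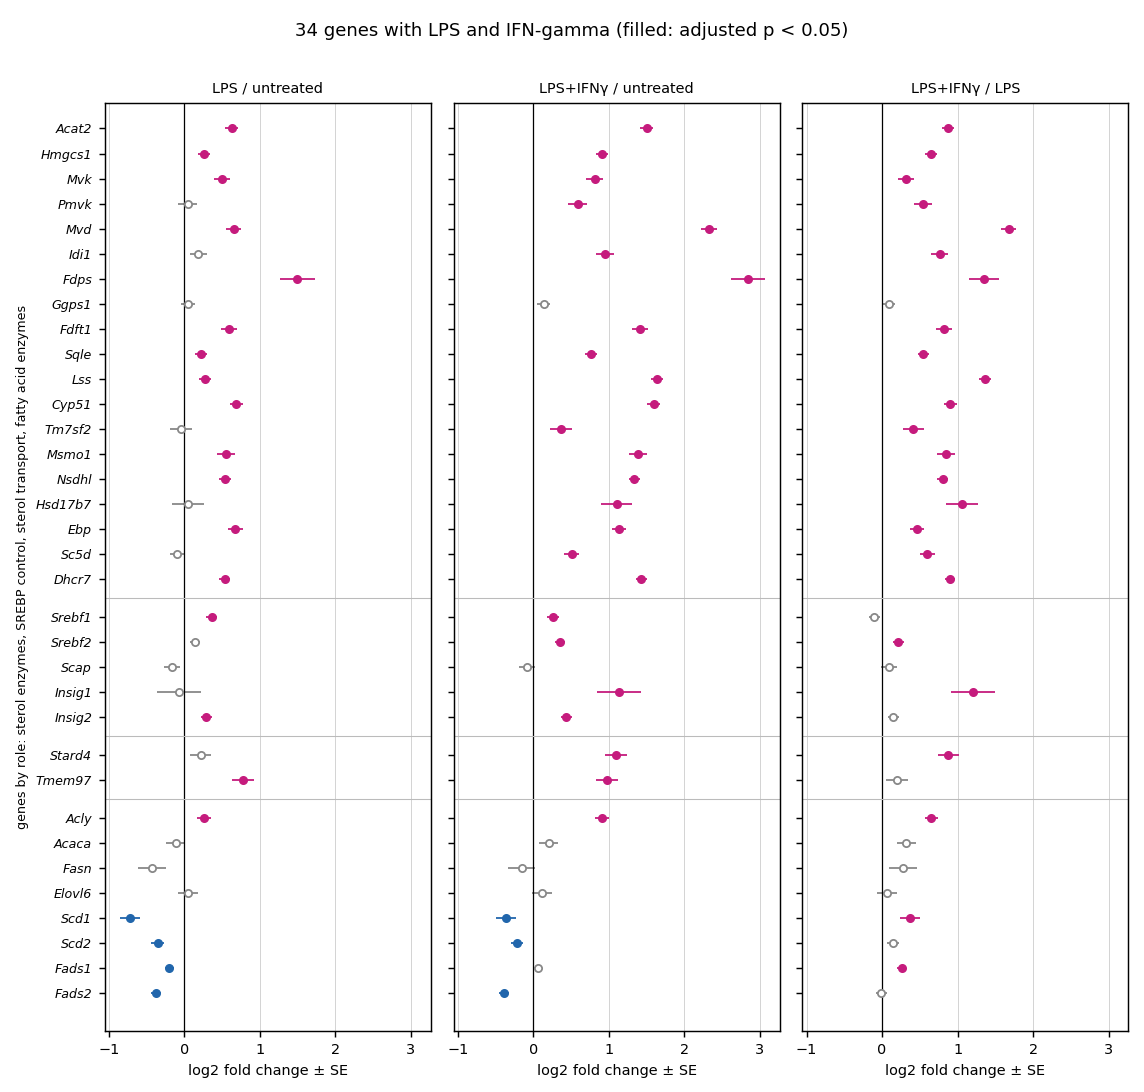
Log2 fold change ± SE (edgeR) of the 34 genes, by role, for LPS over untreated, LPS with IFN-gamma over untreated, and LPS with IFN-gamma over LPS; filled points were called at an adjusted p under 0.05. Mvd, Lss and Fdps reach 1.68, 1.36 and 1.35 in the comparison with LPS, where no gene was called lower.

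Bryostatin was combined with LPS, with and without IFN-gamma. With LPS, most of the 34 genes were not called. Of the 34 genes, 2 were higher and 2 were lower in glia given LPS and bryostatin than in glia given LPS, beside 3.35% and 3.55% of all tested genes (6.89% in either direction). As a median, the log2 fold change of the 34 was 0.15, against 0.00 for all tested genes. Of the 19 sterol enzymes, 16 had an estimate above 0 and 3 below, with a median of 0.19, though only 1 was called higher and 1 lower. Acly had 284, 286 and 301 CPM with LPS and bryostatin, against 228, 209.7 and 236 CPM with LPS, and rose by 0.37 ± 0.09 (adjusted p = 0.0197), a call lost in 5 of 6 fits that left out 1 library. Nsdhl, a dehydrogenase of the removal of the methyls at carbon 4, had 58.9, 54.5 and 57.5 CPM, against 45.9, 44.4 and 43.3 CPM with LPS, and rose by 0.35 ± 0.07 (adjusted p = 0.00839).

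Dhcr7 (chr7:143823145-143848410) had 35.9, 36.1 and 35.4 CPM in glia given LPS and bryostatin, against 43.2, 48.4 and 44.3 CPM in glia given LPS, and fell with a log2 fold change of -0.34 ± 0.07 (adjusted p = 0.00628). Srebf1 had 123, 114 and 126 CPM, against 169, 147 and 157 CPM with LPS, and fell with a log2 fold change of -0.38 ± 0.08 (adjusted p = 0.00579). In both genes every library with bryostatin was below every library with LPS alone. Hmgcs1 had 306, 309 and 301 CPM, against 363, 361 and 354 CPM with LPS, without overlap, but its log2 difference of -0.24 ± 0.08 (adjusted p = 0.0923) was not called as labelled, and DESeq2 gave an adjusted p of 0.0281. Sqle had 209.5, 199.6 and 202 CPM, against 176, 183 and 176 CPM with LPS, a log2 difference of 0.19 ± 0.08 (adjusted p = 0.171).

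Insig1 hardly differed in level, at 81.9, 88.9 and 80.8 CPM with LPS and bryostatin, against 80.4, 84.9 and 84.2 CPM with LPS, and its log2 difference was 0.01 ± 0.29 (adjusted p = 0.991). Srebf2 had 270.3, 264 and 282 CPM and Insig2 had 48.6, 51.6 and 50.8 CPM with LPS and bryostatin, both overlapping LPS alone, with log2 differences of -0.05 ± 0.07 and -0.06 ± 0.08. Fasn had 190.3, 202 and 209 CPM, all above LPS alone, and a log2 difference of 0.23 ± 0.18. Scd1 had 256, 273 and 285 CPM, which overlapped LPS alone, and Scd2 had 1536, 1655 and 1626 CPM, all below LPS alone, with log2 differences of 0.16 ± 0.13 and -0.07 ± 0.08. None of these was called. Libraries did not overlap for 14 genes that were higher and 6 that were lower, where 17.3% and 18% of all tested genes were. Without the doubted untreated libraries, which enter this comparison through the shared spread only, 6 genes were higher and 4 lower, beside 6.02% and 7.06% of all genes. With only the compared groups in the fit, 10 were higher and 4 lower, beside 1637 higher and 1717 lower of all genes.

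With IFN-gamma beside LPS, bryostatin gave 0 higher and 2 lower genes of the 34, beside 1.8% and 1.58% of all tested genes (3.38% in either direction). The median of the log2 fold changes of the 34 genes was 0.00, against -0.01 for all tested genes. Dhcr7 had 61.9, 62.5 and 68.1 CPM in glia given LPS, IFN-gamma and bryostatin, against 86.5, 83.6 and 83.8 CPM in glia given LPS and IFN-gamma, and a log2 fold change of -0.40 ± 0.07 (adjusted p = 0.00353). Srebf1 had 109, 122 and 113 CPM, against 157, 139.9 and 144 CPM without bryostatin, and a log2 fold change of -0.35 ± 0.08 (adjusted p = 0.0187), a call lost in 4 of 6 fits that left out 1 library. Hmgcs1 had 478, 428 and 494 CPM, against 533, 577 and 573 CPM without bryostatin, a log2 difference of -0.27 ± 0.08 (adjusted p = 0.081) that was called in DESeq2 (adjusted p = 0.0226) and, without the doubted libraries, in edgeR, at -0.27 (adjusted p = 0.0136).

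The other genes named throughout did not pass the test with bryostatin beside LPS and IFN-gamma. Sqle had 247, 254 and 242 CPM, Insig1 210.5, 186 and 206 CPM and Insig2 59.6, 55.1 and 65.7 CPM with bryostatin, and all overlapped LPS and IFN-gamma alone, with log2 differences of -0.07 ± 0.08, 0.07 ± 0.29 and 0.04 ± 0.08. Srebf2 had 292, 332 and 287 CPM, with a log2 difference of -0.11 ± 0.07. Scd1 had 341, 317 and 320.1 CPM and Scd2 1949, 1913 and 1778 CPM, with log2 differences of 0.07 ± 0.13 and 0.01 ± 0.08, and these 3 genes overlapped too. Fasn had 188, 296 and 185 CPM with bryostatin, with 1 library high, against 199, 227 and 195 CPM without it, a log2 difference of 0.11 ± 0.18. Libraries did not overlap for 1 gene that was higher and 5 that were lower, where 9.23% and 11.2% of all tested genes were. Without the doubted libraries 0 genes were higher and 4 lower, beside 3.95% and 4.45% of all genes (8.41% together).

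The effect of bryostatin with LPS and IFN-gamma less its effect with LPS alone was called for 0 of the 34 genes in edgeR and in DESeq2, with 4 at an unadjusted p under 0.05, beside 1021 of all 16073 tested genes. Of all tested genes 0.118% were called in edgeR, 0.0684% with a positive and 0.0498% with a negative difference. The differences lay between -0.35 and 0.10 on the log2 scale with a median SE of 0.14, and the lowest adjusted p, 0.407, was that of Nsdhl. They were below 0 for 26 of the 34 genes and above 0 for 8, with a median of -0.10, against -0.01 for all tested genes. For the 19 sterol enzymes these numbers were 18 and 1. Differences of that size were not told apart from 0 at this number of libraries, which does not show that the effects are alike.

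Ch25h had log2 differences of 0.03 ± 0.16 (adjusted p = 0.947) with bryostatin beside LPS and 0.09 ± 0.17 (adjusted p = 0.867) beside LPS and IFN-gamma. Abca1 had -0.19 ± 0.21 and 0.05 ± 0.21 and Apoe -0.17 ± 0.21 and -0.07 ± 0.21 in the same comparisons, none of them called. Of 13 genes of oxysterol synthesis and LXR targets, 1 rose and 2 fell beside LPS, namely Arl4c, a small GTPase, at 0.60 ± 0.07, Mylip, a ubiquitin ligase of lipoprotein receptors, at -0.65 ± 0.18, and Smpdl3a, a phosphodiesterase, at -0.32 ± 0.08. Beside LPS and IFN-gamma 1 rose and 1 fell, Arl4c at 0.30 ± 0.07 and Smpdl3a at -0.34 ± 0.08. Elovl7 rose by 0.42 ± 0.10 and Elovl5, an elongase of polyunsaturated fatty acids, fell with -0.23 ± 0.06 beside LPS. The lipoprotein receptor Scarb1 rose by 0.39 ± 0.10 beside LPS and IFN-gamma. No gene of the lists of SREBP proteases and partners, other isoprenoid branches or fatty acid oxidation was called in either comparison.

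Astrocyte marker sums were 7574 to 7935 CPM in glia given LPS and bryostatin, against 9664 to 10230 CPM in glia given LPS, and 5068 to 5084 CPM in glia given LPS, IFN-gamma and bryostatin, against 7000 to 7560 CPM in glia given LPS and IFN-gamma. In each comparison 1 of 12 astrocyte markers was higher and 4 were lower. Microglia marker sums were 593.4 to 654.9 CPM, against 806.6 to 871.9 CPM, and 423.9 to 519 CPM, against 538.8 to 598.7 CPM. Of 12 microglia markers, 0 were higher and 5 lower in the first comparison, and 0 higher and 3 lower in the second. Neuron marker sums were 201 to 223.2 CPM, against 145.8 to 156.8 CPM, and 308 to 353.4 CPM, against 268.4 to 311.5 CPM, with 1 of 5 tested higher and 0 lower in each comparison. Their part in these results was not tested.

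In experiment 2, bryostatin alone was compared with no treatment. Genes at several points of both pathways fell, and none of the 34 rose. As labelled, 0 genes were higher and 5 lower in bryostatin-treated glia than in untreated glia, beside 2.11% and 1.51% of all tested genes (3.62% in either direction), with 11 at an unadjusted p under 0.05 and 6 called by DESeq2. Over all 15604 tested genes, 2947 had an unadjusted p under 0.05 and DESeq2 called 1337. The median log2 fold change of the 34 was -0.26, against 0.00 for all tested genes. Without the library labelled untreated replicate 1, 0 were higher and 10 lower, beside 1.44% and 1.26% of all genes. With only the bryostatin and untreated groups in the fit, 0 of the 34 and 9 of all genes were called.

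Hmgcs1 had 188, 175 and 184 CPM in bryostatin-treated glia, against 291, 344 and 343 CPM in untreated glia. Every treated library was far below every untreated one, and the log2 fold change was -0.84 ± 0.09 (adjusted p = 0.00107). Dhcr7 had 21.8, 25.8 and 24.2 CPM with bryostatin, against 37.3, 37.8 and 34.9 CPM without, and a log2 fold change of -0.62 ± 0.11 (adjusted p = 0.0126). Cyp51 had 102, 108 and 99.6 CPM with bryostatin, against 118, 152 and 149 CPM without, and a log2 fold change of -0.43 ± 0.10 (adjusted p = 0.0455), a call lost in 5 of 6 fits that left out 1 library and with DESeq2 size factors, with no filter on low counts or with only the compared groups. Without the doubted library it was -0.56 (adjusted p = 0.00426).

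Insig1 had 78.8, 75.7 and 71.8 CPM in bryostatin-treated glia, which lay above untreated replicate 1 and far below untreated replicates 2 and 3. As labelled its log2 difference was -0.77 ± 0.29 (adjusted p = 0.169), and without replicate 1 it was -1.13 (adjusted p = 0.000203). Sqle had 155, 159 and 158 CPM with bryostatin, against 163, 189 and 189 CPM without, all treated libraries below, and a log2 difference of -0.20 ± 0.09 (adjusted p = 0.252). Srebf1, with 136, 150.1 and 135 CPM, against 137, 136 and 139 CPM in untreated glia, had a log2 difference of 0.03 ± 0.08 (adjusted p = 0.889). Srebf2 had 246, 237 and 253 CPM, against 252, 274 and 272 CPM in untreated glia, and Insig2 had 54.7, 50.6 and 48.0 CPM, against 46.0, 50.1 and 52.3 CPM, and their log2 differences of -0.12 ± 0.08 and 0.05 ± 0.09 were not called. The other genes called lower without the doubted library were Idi1 at -0.63 (adjusted p = 0.0137), Lss at -0.44 (adjusted p = 0.0379), Msmo1 at -0.53 (adjusted p = 0.00992) and Sc5d at -0.52 (adjusted p = 0.0209), all sterol enzymes.

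Of the fatty acid enzymes, Fads2 (chr19:10064164-10101503) had 316, 351 and 327 CPM in bryostatin-treated glia, against 460.5, 472 and 458 CPM in untreated glia, and a log2 fold change of -0.48 ± 0.08 (adjusted p = 0.0116). Scd2 had 1423, 1206 and 1584 CPM with bryostatin, against 2015, 2098 and 2079 CPM without, and a log2 fold change of -0.56 ± 0.10 (adjusted p = 0.0172). The treated libraries of both genes were all below the untreated ones. Scd1 had 438, 392 and 454 CPM, against 329, 532 and 525 CPM in untreated glia, and Fasn 317, 199 and 337 CPM, against 156, 321 and 299.8 CPM, and both overlapped, with log2 differences of -0.11 ± 0.16 and 0.13 ± 0.25. Libraries did not overlap for 0 genes that were higher and 7 that were lower, where 9.12% and 9.27% of all tested genes were. Without bryostatin replicate 1 the calls of Dhcr7, Scd2 and Fads2 were lost, with edgeR adjusted p of 0.0584, 0.0618 and 0.057.

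IL-4 alone gave 0 called genes of the 34 against untreated glia, in edgeR and in DESeq2, with 2 at an unadjusted p under 0.05. Of all tested genes 0.583% were called (0.5% higher and 0.0833% lower), 1666 of 15604 had an unadjusted p under 0.05, and DESeq2 called 223. As a median, the log2 fold change of the 34 was 0.11, against -0.03 for all tested genes. Hmgcs1 had 372, 344 and 364 CPM in IL-4-treated glia, against 291, 344 and 343 CPM in untreated glia, a log2 difference of 0.14 ± 0.09 (adjusted p = 0.448), and Insig1 had 189, 159 and 163 CPM, a log2 difference of 0.41 ± 0.28 (adjusted p = 0.466). Sqle differed by 0.00 ± 0.09, Srebf1 by 0.03 ± 0.08, Srebf2 by 0.11 ± 0.08, Insig2 by 0.00 ± 0.09, Fasn by 0.49 ± 0.25, Scd1 by 0.25 ± 0.16 and Scd2 by 0.09 ± 0.10 on the log2 scale. Libraries did not overlap for 8 genes that were higher and 4 that were lower, where 12.5% and 10.9% of all tested genes were. Without the doubted library 0 genes were called as well, beside 0.561% of all.

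Bryostatin given with IL-4, set against IL-4 alone, lowered genes of both pathways, and this pair holds no untreated library. As labelled, 0 genes were higher and 8 lower in glia given IL-4 and bryostatin than in glia given IL-4, beside 2.7% and 1.42% of all tested genes (4.13% in either direction). The median of the log2 fold changes of the 34 was -0.35, against 0.01 for all tested genes. When any 1 library of the pair was left out, 3 to 5 of the 34 genes were called, beside 172 to 371 of all tested genes. Every library with bryostatin was below every library with IL-4 alone for 24 of the 34 genes and above for 3, where 16.6% and 20.1% of all tested genes were below and above. Without the doubted untreated libraries, which enter through the shared spread, 1 gene was higher (Tmem97) and 15 were lower, beside 5.09% and 3.45% of all genes.

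Hmgcs1 had 175, 180.3 and 176 CPM in glia given IL-4 and bryostatin, against 372, 344 and 364 CPM in glia given IL-4, a log2 fold change of -1.02 ± 0.09 (adjusted p = 0.000229). Lss had 25.9, 26.5 and 27.9 CPM with bryostatin, against 42.6, 44.0 and 45.6 CPM without, and a log2 fold change of -0.72 ± 0.12 (adjusted p = 0.0078). Cyp51 had 99.5, 108 and 98.1 CPM, against 159, 152 and 162 CPM without bryostatin, and a log2 fold change of -0.63 ± 0.10 (adjusted p = 0.00794). For these 3 sterol enzymes the groups were far apart and the replicates close. Sc5d, the sterol C5 desaturase, and Dhcr7 fell with -0.58 ± 0.14 (adjusted p = 0.0421) and -0.47 ± 0.11 (adjusted p = 0.0337), and both calls were lost in each of 6 fits that left out 1 library. Sqle had 152, 153 and 145 CPM, against 189.5, 171 and 181 CPM with IL-4 alone, without overlap, and its log2 difference of -0.27 ± 0.09 (adjusted p = 0.132) was not called.

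Insig1 had 73.9, 70.6 and 70.1 CPM in glia given IL-4 and bryostatin, against 189, 159 and 163 CPM in glia given IL-4, the largest fall of the 34 genes in this comparison. Its log2 fold change was -1.25 ± 0.29 (adjusted p = 0.0347) as labelled, and it was -1.26 (adjusted p = 3.19e-05) without the doubted ones. The call as labelled was lost in each of 6 fits that left out 1 library of the pair. Srebf2 had 246, 249.9 and 259 CPM, against 280.1, 299 and 285 CPM with IL-4 alone, a log2 difference of -0.19 ± 0.08 (adjusted p = 0.238). Insig2 had 51.3, 47.6 and 48.5 CPM, against 51.8, 47.7 and 49.1 CPM with IL-4 alone, and Srebf1 had 134, 139.7 and 143 CPM, against 131, 149.9 and 142 CPM. Both overlapped, with log2 differences of -0.01 ± 0.09 (adjusted p = 0.975) and -0.02 ± 0.08 (adjusted p = 0.952).

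Fads2 had 305, 304 and 299 CPM in glia given IL-4 and bryostatin, against 497, 485 and 441 CPM in glia given IL-4, and a log2 fold change of -0.65 ± 0.08 (adjusted p = 0.00246). Scd2 had 1404, 1403 and 1539 CPM with bryostatin, against 2196, 2279 and 2135 CPM without, and a log2 fold change of -0.60 ± 0.10 (adjusted p = 0.00947). Scd1 had 419, 369 and 389 CPM, against 564, 540.1 and 539.8 CPM without bryostatin, without overlap, and its log2 difference of -0.48 ± 0.16 (adjusted p = 0.132) was not called as labelled, while without the doubted libraries it was -0.49 (adjusted p = 0.00499). Fasn had 334, 282 and 324 CPM, against 327, 407 and 360.5 CPM with IL-4 alone, and the libraries overlapped, with a log2 difference of -0.22 ± 0.25 (adjusted p = 0.761).

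**Figure D3:**
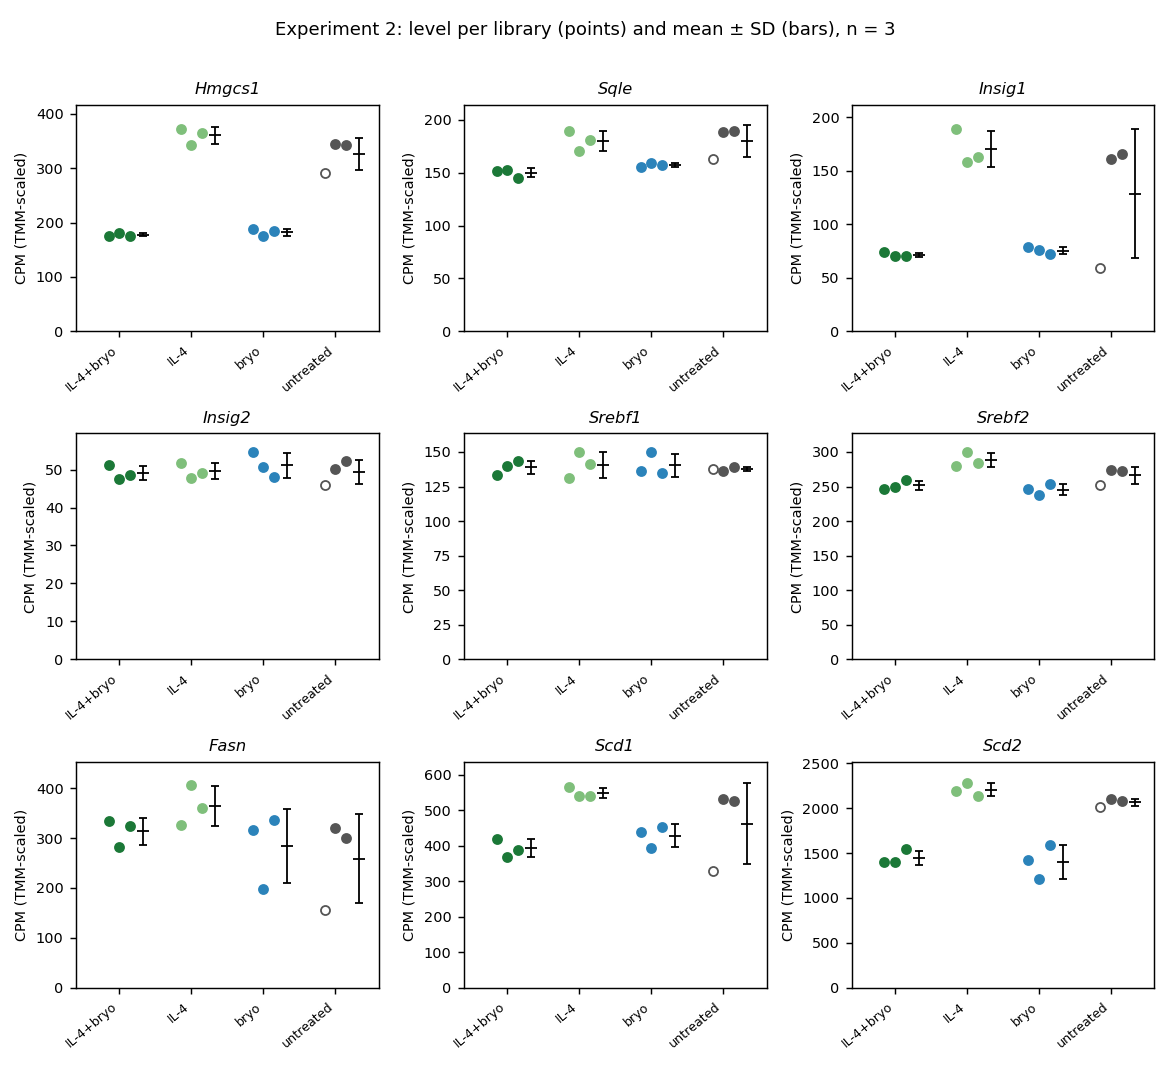
Level per library (points, CPM scaled with TMM factors) and mean ± SD (bars, n = 3) of 9 genes in the 4 groups of experiment 2, with the library labelled untreated replicate 1 as an open point. Both groups with bryostatin lie below IL-4 and untreated glia for Hmgcs1 and Scd2, and for Insig1 the open point lies apart from the other untreated libraries.

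The effect of bryostatin with IL-4 less its effect without IL-4 was called for 0 of the 34 genes in edgeR and in DESeq2, with 1 at an unadjusted p under 0.05. Of all tested genes 0 were called in edgeR (0%), with 327 at an unadjusted p under 0.05, and DESeq2 called 4. The difference was -0.18 ± 0.13 for Hmgcs1, -0.42 ± 0.17 for Lss and -0.48 ± 0.40 for Insig1 on the log2 scale. The range over the 34 genes was -0.48 to 0.48, with SEs between 0.11 and 0.79 and a median SE of 0.22. Without the doubted libraries the lowest difference of the 5 genes of SREBP control, Insig1 among them, was -0.13. No difference was told apart from 0 at this number of libraries, which does not show that the effects are alike.

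Ch25h had 36.6, 32.8 and 30.7 CPM in bryostatin-treated glia, against 7.17, 15.7 and 11.7 CPM in untreated glia, a log2 fold change of 1.53 ± 0.23 (adjusted p = 0.00501). It had 79.6, 81.6 and 78.8 CPM in glia given IL-4 and bryostatin, against 9.55, 12.6 and 9.17 CPM in glia given IL-4, a log2 fold change of 2.94 ± 0.23 (adjusted p = 0.000102). In both pairs every library with bryostatin was above every library without it, and Ch25h was the only 1 of the 13 genes of oxysterol synthesis and LXR targets that was called. IL-4 alone gave a log2 difference of -0.14 ± 0.23 (adjusted p = 0.737). Abca1 differed by 0.54 ± 0.42 with bryostatin, 0.62 ± 0.42 with IL-4 and -0.07 ± 0.42 with bryostatin beside IL-4, and Apoe by -1.07 ± 0.37, -1.23 ± 0.37 and -0.21 ± 0.37 in the same order, none of them called. In untreated glia Apoe had 15068, 5454 and 5152 CPM and Abca1 173, 401 and 459 CPM, with the doubted replicate 1 apart in both. Without that library the lowest log2 fold change of the 13 genes was -0.40 with bryostatin and -0.54 with IL-4.

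Other genes of fatty acid and glycerolipid synthesis fell with bryostatin, 4 of 16 in each pair, with 0 higher. Acsl3, a long-chain acyl-CoA synthetase, had log2 fold changes of -0.65 ± 0.09 (adjusted p = 0.00459) against untreated glia and -0.71 ± 0.09 (adjusted p = 0.00278) beside IL-4. Aacs, which makes acetoacetyl-CoA for lipid synthesis, had -0.58 ± 0.09 (adjusted p = 0.00798) and -0.62 ± 0.09 (adjusted p = 0.0047), and Elovl5 -0.42 ± 0.09 (adjusted p = 0.025) and -0.38 ± 0.09 (adjusted p = 0.0311). Gpam fell with -1.02 ± 0.23 (adjusted p = 0.0364) against untreated glia, and Acss2, which makes acetyl-CoA from acetate, with -0.37 ± 0.09 (adjusted p = 0.0382) beside IL-4. Lipa rose by 0.80 ± 0.17 (adjusted p = 0.0254) beside IL-4, the only 1 of 14 genes of sterol uptake and storage that was called there, and 0 of the 14 were called against untreated glia. No gene of the other 3 pathway lists was called in either pair, and with IL-4 alone 0 genes of all 6 lists were called.

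Astrocyte markers summed to between 9292 and 11320 CPM in bryostatin-treated glia, against 13700 to 18710 CPM in untreated glia, and to between 9173 and 10290 CPM in glia given IL-4 and bryostatin, against 12770 to 13440 CPM in glia given IL-4. Of 12 astrocyte markers, 1 was higher and 6 lower in the first pair, and 1 higher and 5 lower in the second. Microglia markers summed to between 1613 and 2314 CPM, against 1718 to 2140 CPM, and to between 1853 and 2341 CPM, against 1358 to 1891 CPM. Of 12 microglia markers, 1 was higher and 0 lower in the first pair, and 1 higher and 1 lower in the second. Neuron markers summed to between 211.1 and 275 CPM, against 189 to 209 CPM, with 0 of 3 tested called, and to between 204.8 and 236 CPM, against 172.2 to 190.3 CPM, with 1 of 3 higher. The part of any of these in the fall of the sterol genes was not tested.

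Across the 4 pairs with and without bryostatin, which share no library, Dhcr7 was the only 1 of the 34 genes called lower in all, with log2 fold changes of -0.62 ± 0.11 against no treatment, -0.47 ± 0.11 beside IL-4, -0.34 ± 0.07 beside LPS and -0.40 ± 0.07 beside LPS and IFN-gamma. Its call beside IL-4 was lost in each of 6 fits that left out 1 library, and its call against no treatment was lost without bryostatin replicate 1 and with only the compared groups in the fit. Of all 15243 genes tested in both experiments, 31 (0.203%) were called lower in all 4 pairs. Another 5 genes were called lower in 2 pairs, which were Hmgcs1, Cyp51, Scd2 and Fads2 in experiment 2 and Srebf1 in experiment 1. This was 14.7% of the 34 genes, beside 1.33% of all genes. Insig1, Lss and Sc5d were called lower in 1 pair (8.82% of the 34, beside 3.68% of all genes). Another 25 genes were called lower in none (73.5%, beside 94.5% of all genes). No gene of the 34 was called higher in more than 1 pair, where only 2.58% of all genes were. Without the doubted libraries, Dhcr7, Hmgcs1 and Fads2 were called lower in all 4 pairs, beside 71 of 15449 genes (0.46%). In the same fits 7 genes were called higher in 1 pair. These were Tmem97 beside IL-4, where 5.09% of all genes were called higher, and 6 genes beside LPS, where 6.02% were. The 6 were Acly, Cyp51, Idi1, Msmo1, Nsdhl and Sqle. Of these, Cyp51, Idi1 and Msmo1 were also called lower in 2 other pairs and Sqle in 1, so their calls went in both directions. The estimate was below 0 in all 4 pairs for 7 genes, which were Dhcr7, Hmgcs1, Fads2, Srebf2, Stard4, Elovl6 and Ggps1, or 20.6% of the 34, and for 16.6% of all genes, so this share was near the background. Whether the effect of bryostatin differs between the experiments was not tested.

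**Figure D4:**
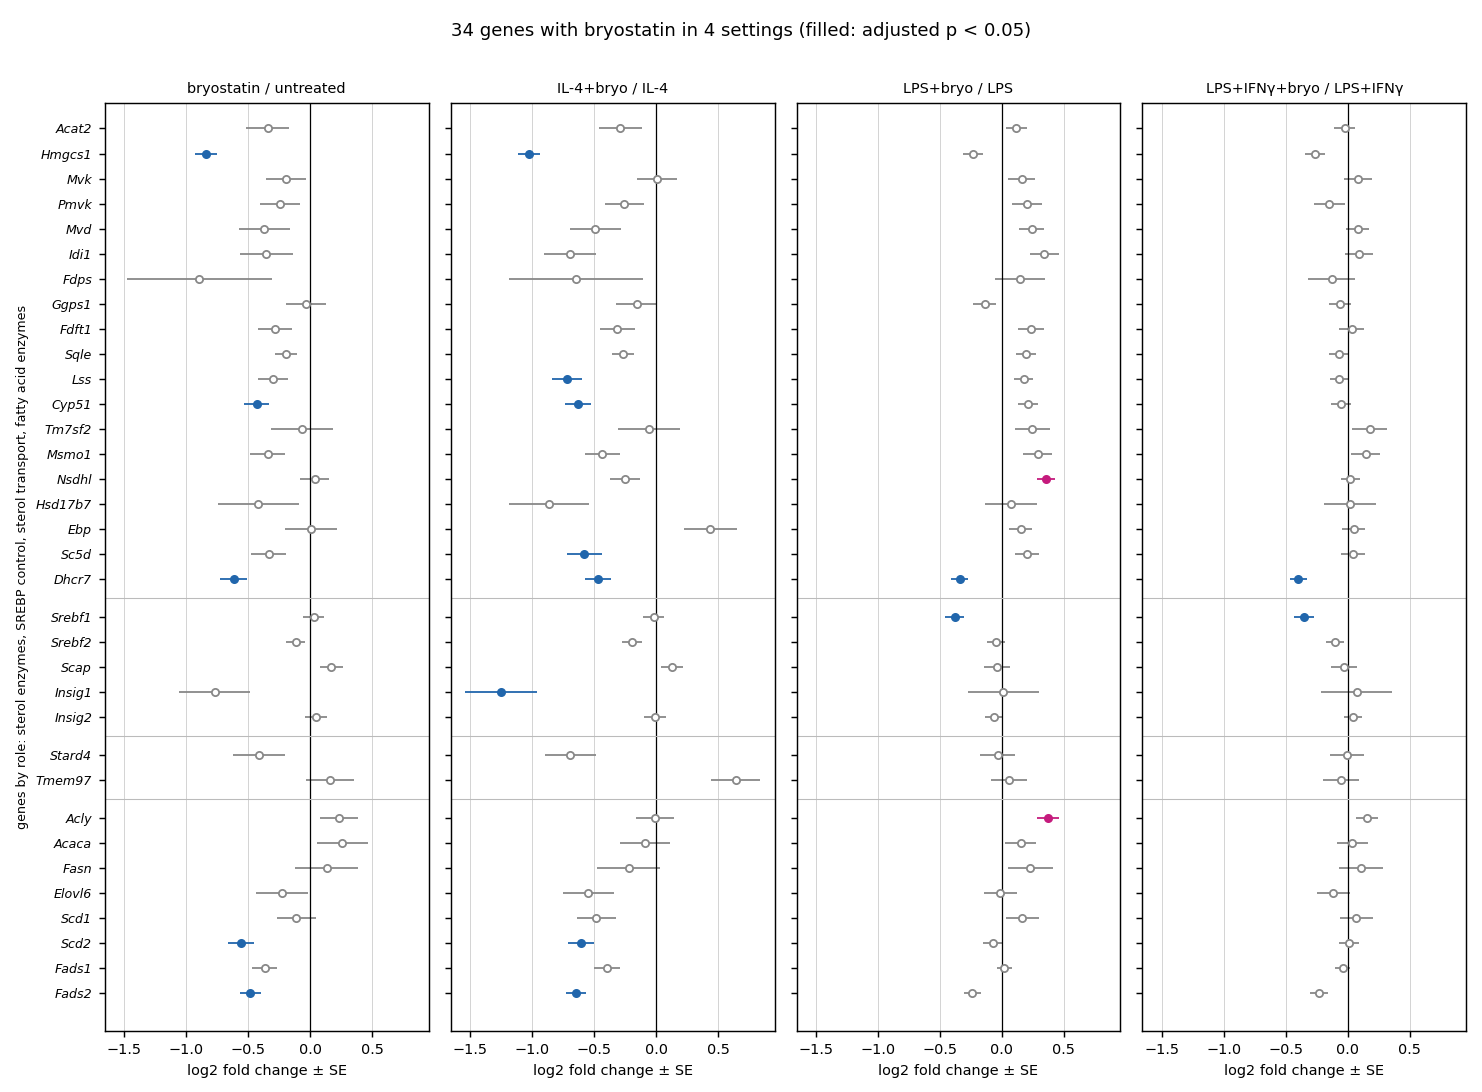
Log2 fold change ± SE (edgeR) of the 34 genes, by role, for bryostatin over untreated, IL-4 with bryostatin over IL-4, LPS with bryostatin over LPS, and LPS, IFN-gamma and bryostatin over LPS and IFN-gamma; filled points were called at an adjusted p under 0.05. Dhcr7 is filled in all 4 panels, and the median over the 34 genes is -0.26, -0.35, 0.15 and 0.00 in this order of panels.

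By mean level, the 19 sterol enzymes peaked in the groups of experiment 1 given LPS and IFN-gamma, 10 of them with bryostatin and 9 without. The mean was lowest in untreated glia for 16 of the 19. Of the 8 fatty acid enzymes, 4 had their highest mean in untreated glia and 4 their lowest in glia given LPS. In experiment 2, 23 of the 34 genes had their highest mean in glia given IL-4 and 17 had their lowest in glia given IL-4 and bryostatin. These orders are of means, and neighbours in them often differ by less than the spread of the libraries. In experiment 2 the doubted untreated replicate 1 was below both its mates for 23 of the 34 genes, which lowers the untreated means. As labelled, the estimate for IL-4 over untreated was above 0 for 24 genes and below for 10. Without that library these numbers were 20 and 14. For the 19 sterol enzymes they went from 12 and 7 to 8 and 11.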

How the data were processed

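Gene counts of 27 libraries of polyadenylated, unstranded RNA were used. The authors deposited whole-number read counts per gene, and the submitters' processing notes name fastp, STAR, featureCounts and the mm10 build without versions. Counts were tested with edgeR 4.0.16 in R 4.3.3, separately in each experiment over all its groups with no covariate: filterByExpr, TMM scaling, robust dispersions and the quasi-likelihood F test, with Benjamini-Hochberg adjustment over all tested genes and a threshold of 0.05. The first group named in a pair is on top of the fold change. The SE is the log2 fold change divided by the square root of F. Levels are CPM, counts per 1e6 of the TMM-scaled library size, and a count of 3 was worth between 0.1061 and 0.1998 CPM over the libraries. DESeq2 1.42.0, other scaling, no filter, fits of the compared groups or of all 27 libraries, a replicate block, each library left out, and both doubted untreated libraries left out were the alternatives.

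The 34 genes and the pathway and marker lists were chosen with earlier results of these data known. All 34 genes are accounted for, with values per library for 9 fixed genes (Hmgcs1, Sqle, Insig1, Insig2, Srebf1, Srebf2, Fasn, Scd1 and Scd2) and for up to 3 further called genes of largest change in each pair, and other genes were named to account for their group. Gene positions are those of the deposited table. The fitting steps were tested on simulated counts. Deviations of same-numbered libraries correlated between -0.252 and 0.267 in experiment 1, with 3 of 30 correlations over 0.1, and between -0.433 and 0.476 in experiment 2, with 6 of 18 over 0.1. Between libraries of different number, 5 of 60 correlations in experiment 1 and 9 of 36 in experiment 2 were over 0.1. All 3 correlations of same-numbered libraries were over 0.1 for LPS with bryostatin beside LPS with IFN-gamma and for bryostatin beside IL-4 with bryostatin. This held for none of the 8 compared pairs of groups, so replicate numbers were not used as pairs.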

Additional observations from a re-analysis of the deposited data

How the results depend on the processing

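Of the 34 genes, the number called stayed within 1.5 times of that as labelled in all alternatives for LPS, and for LPS with IFN-gamma against either reference. Without both doubted untreated libraries, or without untreated experiment 1 replicate 1 alone, the change of Insig1 with LPS reversed to 0.61 (adjusted p = 5.47e-06), and over the fits that left out 1 library it ran between -0.34 and 0.61. Counts of called genes moved as follows, and the cause was not tested. For LPS with bryostatin over LPS (4 genes) they were 14 with only the compared groups in the fit and 10 without both doubted libraries. For LPS, IFN-gamma and bryostatin over LPS and IFN-gamma (2 genes) they were 4 with DESeq2, 1 with only the compared groups and 4 without both. For bryostatin over untreated (5 genes) they were 0 with only the compared groups and 10 without both. For IL-4 over untreated (0 genes) it was 1 with all 27 libraries in 1 fit. For IL-4 with bryostatin over IL-4 (8 genes) they were 13 with DESeq2, 22 with only the compared groups, 15 with all 27 libraries and 16 without both.

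Leaving out 1 library gave 17 to 24 called genes for LPS, 26 to 28 for LPS with IFN-gamma over untreated, 20 to 23 for LPS with IFN-gamma over LPS, 3 to 4 for bryostatin beside LPS, 1 to 2 beside LPS and IFN-gamma, 1 to 10 for bryostatin alone, 0 for IL-4, 3 to 5 for bryostatin beside IL-4 and 0 for both differences between bryostatin effects. The same fits, over all tested genes, gave 5100 to 7032, 8454 to 9997 and 4631 to 5239 calls in the first 3 comparisons. For bryostatin they gave 588 to 689 beside LPS, 242 to 434 beside LPS and IFN-gamma, and 188 to 824 alone. They gave 66 to 96 for IL-4 and 172 to 371 for bryostatin beside IL-4. The differences between bryostatin effects had 4 to 19 in experiment 1 and 0 in experiment 2. Over all tested genes, bryostatin alone gave 565 calls, against 9 with only the compared groups, 1337 with DESeq2 and 1548 with all 27 libraries, and bryostatin beside IL-4 gave 644, against 2703, 1213 and 1325, and 1355 without both doubted libraries. Bryostatin beside LPS gave 1108 calls, against 3354 with only the compared groups and 2148 without both, and beside LPS and IFN-gamma 543, against 879 with DESeq2 and 1380 without both. The difference between bryostatin effects in experiment 1 gave 19 calls, against 95 with DESeq2, 55 with no filter, 112 with only the compared groups, 7 with all 27 libraries and 114 without both, and that in experiment 2 gave 0, against 4 with DESeq2 and 5 with all 27 libraries. IL-4 gave 91 calls, against 223 with DESeq2, 41 with only the compared groups and 224 with all 27 libraries.

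With the replicate block, whose numbers were not taken as pairs, 21, 28, 23, 4, 2, 4, 0 and 6 of the 34 genes were called in the order LPS, LPS with IFN-gamma over untreated and over LPS, bryostatin beside LPS and beside LPS and IFN-gamma, bryostatin alone, IL-4, and bryostatin beside IL-4. In the same order 5935, 9089, 5555, 963, 464, 422, 94 and 564 of all tested genes were called. Depth limits Fdps most, with 972 reads in all 27 libraries.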
